A study of Drosophila melanogaster with 27 samples.

Results

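The comparison described here sets the most depressed inbred sublines of *Drosophila melanogaster*, labelled +D, against the outbred control. It takes 15 of the 27 arrays of the series: the 12 arrays whose titles give a +D subline, 3 from each of lines 5, 7, 12 and 15, and the 3 arrays titled as outbred control. Each array held RNA of whole adult males, and each value is the log2 expression of a probe set, the oligonucleotides that together measure 1 transcript. The other 12 arrays, from the least depressed sublines (−D), were used to estimate the spread and are given beside the results where a difference from them was tested.

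A line descended from a single couple of the outbred population, and its sublines were kept by sib mating for 8 generations up to an inbreeding coefficient of about 0.7. The +D sublines were those of each line with the lowest numbers of pupae per female among the sublines that still had enough flies. They were thus chosen for low productivity, and what a line shares includes the genes of its founding couple. The control samples were random replicates of the outbred population from which the couples came. All flies carried the labels of adult males reared at the same temperature under continuous light, with no agent given and no age in days. Any difference in age between sublines and control therefore cannot be told apart from inbreeding. As these are pools of whole flies, fewer cells of a type and less RNA per cell cannot be told apart either.

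Sib mating raises homozygosity, so that recessive deleterious alleles are expressed, and the fall in fitness that follows is inbreeding depression. In an adult male most RNA comes from muscle, gut, fat body, testis, accessory gland, head and epidermis. The epidermis secretes the cuticle, a layer of chitin fibres and proteins that is hardened by oxidised catecholamines, and the genes for this work are known to be most active around moults and in the first days of adult life. The fat body makes immune peptides and metabolic hormones. Hemocytes, the blood cells, carry the prophenoloxidases of melanization.

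The labelled tissue was checked first. Of 12 testis markers 11 were on the array and tested, and their mean was 11.2 to 11.8 in +D arrays and 11.3 to 11.6 in control arrays. The 9 accessory gland markers had a mean of 11.8 to 12.3 in +D arrays and 11.5 to 11.9 in control arrays. All samples thus carried high levels of male markers. Eggshell markers, which males should lack, had a mean of 4.22 to 7.73 in +D arrays and 4.44 to 4.97 in control arrays. The 3 highest were line 7 replicate 2 (7.73), line 5 replicate 3 (6.39) and line 15 replicate 2 (6.05), and the other +D arrays did not exceed 4.96. The yolk protein genes Yp1, Yp2 and Yp3 had a mean of 12.2, 11.4 and 11.3 in the same 3 arrays, but 9.30 in line 12 replicate 1 of the +D sublines, and 9.64 in replicate 3 of the control. The main results are therefore given with and without those 3 eggshell arrays. None of the 9 eggshell markers tested passed the threshold between +D sublines and control.

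**Figure D1:**
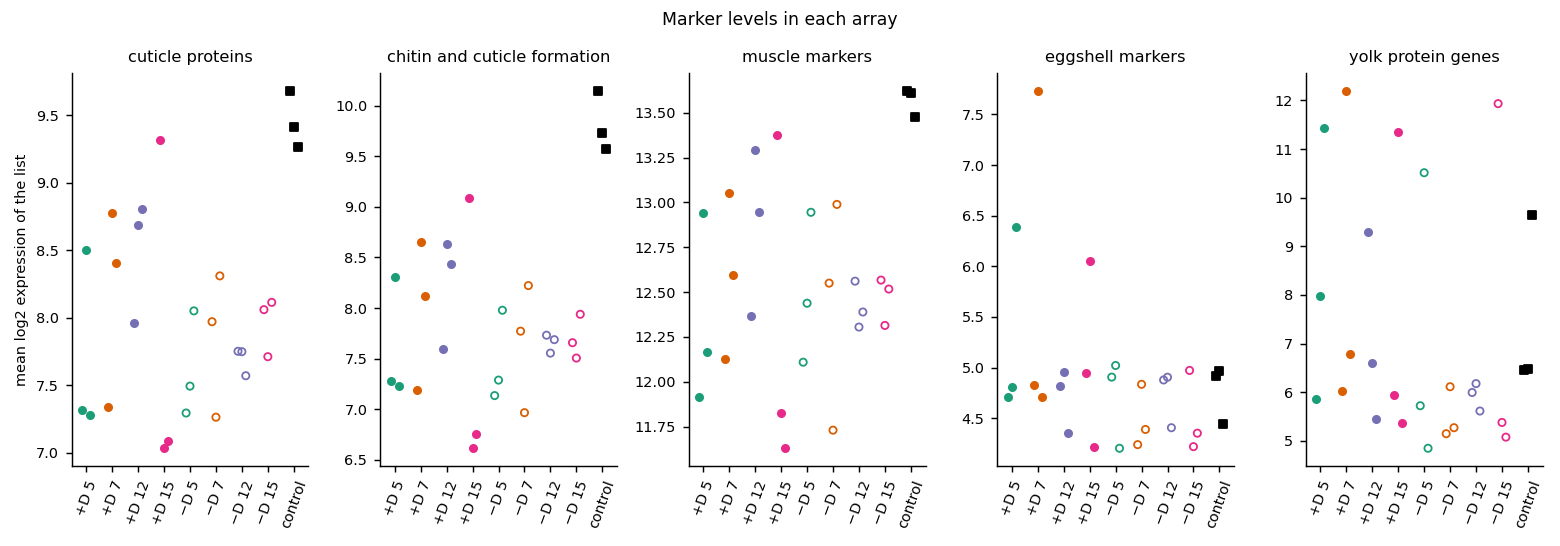
Mean log2 expression of 5 marker lists in each array (vertical axis), by group (horizontal axis); filled points are +D sublines, open points −D sublines and squares the outbred control, with colours for lines. Control arrays lie at the top for chitin and cuticle formation and for muscle. For cuticle proteins line 15 replicate 1 of the +D sublines (9.32) lies above control replicate 3 (9.27). That array is the +D array closest to the controls in each of these panels, and 3 +D arrays stand above the rest in eggshell markers.

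Of 9000 probe sets tested, 3515 (39.1%) differed between +D sublines and control at an adjusted p under 0.05, as the mean of the 4 lines. There were 2330 higher (25.9%) and 1185 lower (13.2%) in +D sublines. Against the same control the −D sublines had 2769 higher (30.8%) and 1356 lower (15.1%). The rises were many and small, while the falls were fewer and larger. A change of over 1 on the log2 scale was found in 142 that rose and in 246 that fell, and one of over 2 in 24 that rose and 70 that fell. The median change over all probe sets was 0.10. After the arrays were set to a common median 56.4% of calls were rises, against 66.3% before it. Without the 3 eggshell arrays 2245 rose (24.9%) and 1171 fell (13.0%), and 3194 of the 3515 were called again with the same sign. Each control sample weighed more than any +D array. Without replicate 1, 2 or 3 of the control the calls numbered 2337, 2733 and 2678.

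The lines were then taken one by one. Of the 3515 called, 3466 had the same sign in the 4 lines, and 1154 were called in each line on its own. These counts are descriptions, since the probe sets were called on the mean of the 4 lines and the 4 contrasts share the 3 control arrays. The count was highest in line 5, with 2407 higher (26.7%) and 1059 lower (11.8%). It was lowest in line 7, with 1316 higher (14.6%) and 782 lower (8.69%). Lines 12 and 15 lay between, with 1338 higher (14.9%) and 855 lower (9.50%) in line 12, and 1810 higher (20.1%) and 894 lower (9.93%) in line 15. This order changed without the 3 eggshell arrays, when 2662, 2154, 2344 and 1908 were called in lines 5, 7, 12 and 15, so that line 15 had the fewest. With the 4 line means as units there were 3235 calls, of which 2927 were shared with the 3515.

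The spread between sublines was set beside each change. The median SD of a probe set was 0.18 between sublines within lines, 0.12 between line means and 0.12 between the 3 controls. The arrays of the groups overlapped for many of the calls. All 12 +D arrays lay above the 3 controls in 1080 probe sets (12.0%) and below them in 615 (6.83%), and of the calls 1673 were separated in this way and 1842 were not. The large falls varied most. Among the 70 falls of over 2 the median SD within lines was 1.06, and within line 15 it was 1.61, against 0.64 within lines among the 24 rises of over 2.

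**Figure D2:**
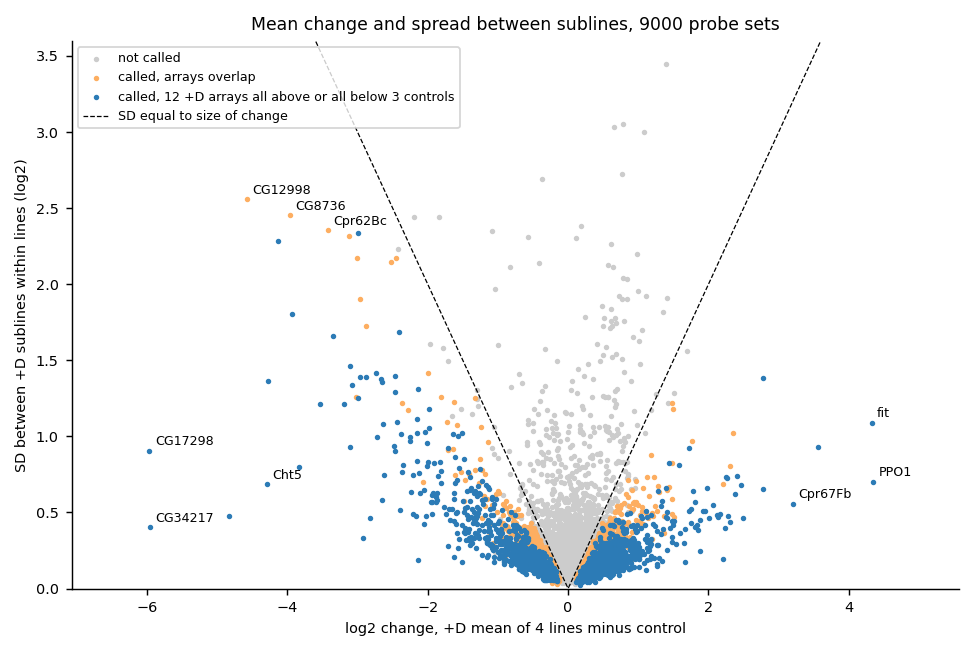
Log2 change of +D sublines against control (horizontal axis) and SD between sublines within lines in log2 (vertical axis) for 9000 probe sets, coloured by call and by separation of the arrays; the dashed lines mark an SD equal to the change. CG34217 and CG17298 combine the largest falls with an SD under 1, and CG12998 and Cpr62Bc have an SD above 2.

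Both cuticle lists had the lowest medians of all lists. Of 96 cuticle protein genes written in the list 84 were on the array and 22 were tested. Of these 17 fell (77.3%, against 13.2% of all probe sets) and 1 rose in +D sublines. Their median change was -1.42, against 0.10 over all probe sets. All 12 +D arrays were below the controls in 10 of them, where this held for 6.83% of all probe sets. A list of chitin and cuticle formation, written after the values were seen, had 20 of 24 tested members lower (83.3%) and 0 higher. Its median was -2.14, and 17 were separated. Without the 3 eggshell arrays 15 of the cuticle protein genes and 20 of the others fell, and without replicate 1 of the control 10 and 17. The filter bears on these counts, as it kept probe sets with a high maximum in any array, and a gene that passed it only through the control had to be lower in +D sublines. There were 2 such genes among the 22, both called, and 0 among the 24. Among the 9000 probe sets of highest mean, 17 cuticle protein genes were tested, of which 13 fell and 1 rose, with a median of -1.32, and 17 of 20 genes of the other list fell.

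Cht5, a chitinase, had 5.18, 5.71 and 7.27 as its lowest, median and highest value in +D arrays, while control arrays had 10.62, 10.04 and 9.90. Every +D array was below every control, and the closest pair differed by -2.63 (+D minus control). The change was -4.29 ± 0.30 (SE; adjusted p = 5.5e-09), and it was between -4.41 and -4.08 in every line. Among inbred arrays only line 7 replicate 2 of the +D sublines, with 7.27, reached the filter cutoff of 7.23. Cht5 was not among the 9000 probe sets of highest mean, so that its presence among the genes tested rests mainly on the controls. Other genes of the chitin layer fell as well. The chitin synthase gene kkv fell by 3.08, the chitin deacetylase genes verm and serp had changes of -3.19 and -2.64, and the chitin-binding protein genes Gasp and obst-A changes of -2.65 and -2.16. Genes of pigment and hardening were lower too, with -1.99 for the laccase gene stw, -1.94 for ebony (e) and -2.40 for yellow (y). In contrast, Ddc, the dopa decarboxylase gene, had a change of -0.23 (adjusted p = 0.076), and tan (t) had 0.29 (adjusted p = 0.37).

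A first pattern was a level mostly under the median of all probe sets in +D arrays, which was 6.33 to 6.54. How far such levels lie above background is unknown, since no detection calls were used, so no linear fold is given for them. CG34217 had 3.72, 4.06 and 5.16 (lowest, median, highest) in +D arrays, while control arrays had 10.49, 10.25 and 9.58. Its change was -5.96 ± 0.32 (SE; adjusted p = 1.1e-10), and the gap between the closest +D and control arrays was 4.42. CG17298 was as large a fall, with 4.99, 5.34 and 7.83 in +D arrays and 12.27, 11.70 and 11.02 in control arrays, and a change of -5.96 ± 0.40. Line 15 replicate 1 with 7.83 and line 7 replicate 2 with 6.89 exceeded the median of their arrays. The gene dyw (daywake), which in flies limits daytime sleep and lies beside the clock gene period, had 4.25, 4.92 and 5.99 in +D arrays, and 10.72, 9.60 and 9.19 in control arrays. CG13043 had 3.98, 4.61 and 6.36 in +D arrays, and 9.18, 8.30 and 8.63 in control arrays. In these 4 genes and Cht5 the 12 +D arrays and the 3 controls were apart by 1.94 or more. CG34217, dyw and CG13043 passed the filter through control arrays alone, so that their fall is a description. Against the control the −D sublines had changes of -6.05 for CG34217, -6.215 for CG17298, -4.78 for dyw and -3.90 for CG13043. CG8534, a gene of the family of fatty acid elongases, fell by 4.27 ± 0.58 with a gap of 1.67. Like Cht5, neither CG8534 nor CG17298 was among the 9000 probe sets of highest mean.

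A second pattern was a wide range among sublines. Cpr62Bc, a structural cuticle protein gene, had 7.05, 10.16 and 6.42 in line 5, 6.36, 10.69 and 10.09 in line 7, 8.96, 10.86 and 10.40 in line 12 and 11.97, 5.71 and 6.43 in line 15, while the controls had 12.72, 12.14 and 11.66. Replicate 1 of line 15 reached the control values and replicates 2 and 3 of the same line were the lowest or close to it. The change was -3.42 ± 1.05 (SE; adjusted p = 0.014) and the SD within lines was 2.36. Without replicate 1 of the control it was no longer called. CG12998 had 12.30, 6.70 and 4.33 in line 15, and the controls had 13.50, 13.14 and 12.23, with a change of -4.58 ± 1.13 and an SD within lines of 2.56. CG8736 and CG11413 had the same array at the top, with 12.82 and 10.93 in replicate 1 of line 15, and SDs within lines of 2.45 and 2.29. Cpr97Ea and Cpr100A had changes of -3.93 and -3.35 with all +D arrays below the controls. The mean of the 22 cuticle protein genes was 7.03 to 9.32 in +D arrays, where line 15 replicate 1 had the 9.32, and 9.27 to 9.68 in control arrays.

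One cuticle gene went the other way. Cpr67Fb had 7.96, 8.73 and 9.87 (lowest, median, highest) in +D arrays and 5.95, 5.60 and 5.33 in control arrays, a rise of 3.20 ± 0.31 (SE; adjusted p = 5.5e-07) with a gap of 2.0. Cpr67Fb passed the filter through inbred arrays alone, so that this rise is a description. It also exceeded the −D sublines, by 1.33 ± 0.20 (adjusted p = 1.1e-04). Few cuticle genes were called between the inbred levels. Against the −D sublines 2 of the 22 were higher and 0 lower in +D sublines, where over all probe sets 583 (6.48%) were higher and 823 (9.14%) lower. The −D arrays had a mean of 7.26 to 8.31 over the 22 genes. Against the control 17 of the 22 fell in −D sublines (against 15.1% of all probe sets), with a median of -1.93. Of the 24 chitin and cuticle formation genes 21 fell in −D sublines, with a median of -2.33.

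**Figure D3:**
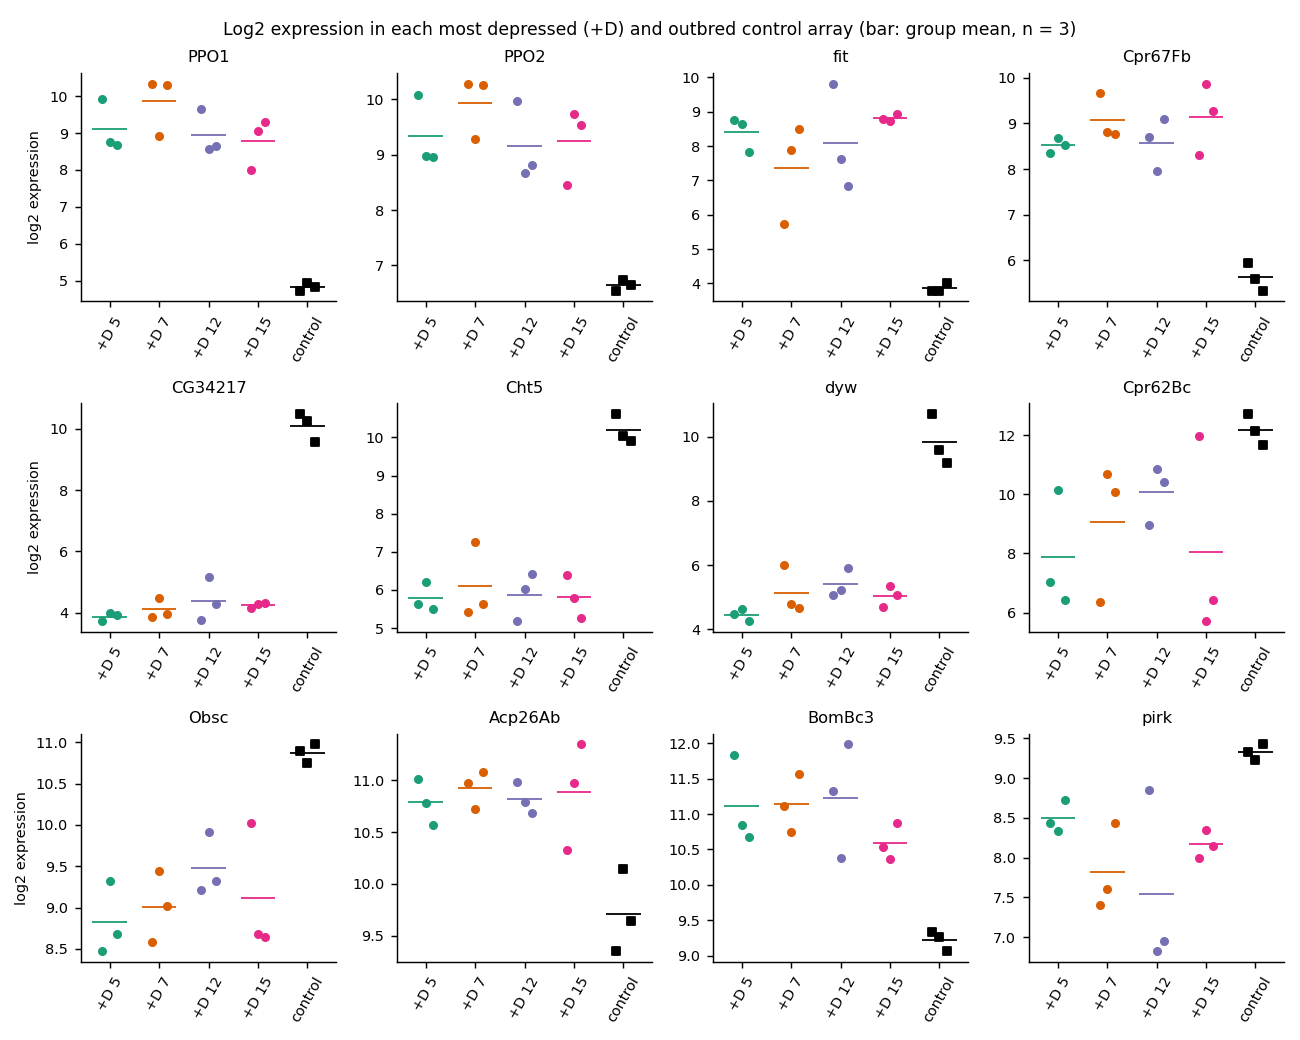
Log2 expression of 12 genes (vertical axis) in each +D array, by line, and in each outbred control array (horizontal axis); bars are means of 3 arrays. PPO1, PPO2, fit and Cpr67Fb are high in all +D arrays, CG34217, Cht5 and dyw are low in all of them, and Cpr62Bc ranges from 5.71 to 11.97 among +D arrays.

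Muscle genes were lower in +D sublines. Of 29 tested members 24 fell (82.8%, against 13.2% of all probe sets) and 2 rose, with a median of -0.79. In 15 all +D arrays were below the controls, where this held for 6.83% of all probe sets. Without the 3 eggshell arrays 23 fell, and without replicate 1 of the control 15 fell. Obsc, the gene of the sarcomere protein obscurin, had 8.46, 9.12 and 10.03 (lowest, median, highest) in +D arrays and 10.90, 10.75 and 10.98 in control arrays. It fell by 1.77 ± 0.26 (SE; adjusted p = 2.4e-05), a fold of 3.40. Mlc2, the regulatory light chain of myosin, had 11.79, 12.67 and 13.85 in +D arrays and 14.02, 14.08 and 13.76 in control arrays, with a change of -1.33 ± 0.37 (adjusted p = 0.0069). The groups overlapped for Mlc2 through line 15 replicate 1. Strn-Mlck, a kinase of the sarcomere, fell by 1.40 ± 0.36 and Act88F, the actin of flight muscle, by 1.25 ± 0.48. The rises were Argk1 with 0.25, which makes arginine kinase, and Mf with 0.75, although a second probe set of Mf had a change of -0.22. The mean of 7 muscle markers was 11.6 to 13.4 in +D arrays and 13.5 to 13.6 in control arrays. Line 15 replicate 1 was again the +D array nearest to the controls. In −D sublines 23 of the 29 muscle genes fell against the control (against 15.1% of all probe sets), with a median of -0.96. Between the inbred levels 0 of the 29 were called, where 6.48% of all probe sets were higher and 9.14% lower in +D sublines. Whether the fall of muscle and the fall of cuticle genes have a common source was not tested.

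Glycolysis genes, which feed muscle among other tissues, were lower in part. Among 23 glycolysis genes 8 fell (34.8%, against 13.2% of all probe sets) and 1 rose. The falls were 4, 4 and 3 without replicate 1, 2 or 3 of the control. In −D sublines 12 of the 23 fell against the control, where 15.1% of all probe sets fell. Glyp, glycogen phosphorylase, fell by 0.71 ± 0.17 (SE; adjusted p = 0.0033), Pfk, phosphofructokinase, by 0.64 ± 0.17 and Gpdh1, glycerol-3-phosphate dehydrogenase, by 0.59 ± 0.15. Line 15 replicate 1 had the highest +D value of each, with 12.97, 11.73 and 13.56, and the controls had 13.12 to 13.26, 11.87 to 11.97 and 13.50 to 13.70. Of 54 oxidative phosphorylation genes 11 fell (20.4%, against 13.2% of all probe sets) and 2 rose, with a median of -0.15. The number of these falls moved widely with the choice of arrays and with median centring. It was 24 without line 15 replicate 1, 23 without line 12 replicate 2, 20 without line 5 replicate 2, 18 without line 7 replicate 2, 22 after median centring, 3, 4 and 3 without replicate 1, 2 or 3 of the control and 10 without the 3 eggshell arrays. In the test against −D sublines 33 of the 54 were higher in +D sublines and 0 lower, where 6.48% of all probe sets were higher. Against the control the median was -0.15 in +D sublines and -0.33 in −D sublines. Of 69 mitochondrial ribosomal proteins 15 were lower (21.7%, against 13.2% of all probe sets) and 5 higher (7.25%, against 25.9%). Of the 5 rises 1 passed the filter through inbred arrays alone. The falls were led by mRpL28 with -0.58 ± 0.14, and 9 were lower without replicate 3 of the control.

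Both prophenoloxidase genes tested were among the 10 largest rises, and PPO1 was the largest. The filter bears on rises as well. Of the 9000 probe sets 1270 reached its cutoff of 7.23 in inbred arrays alone, and 503 of these were called higher. They include PPO1, PPO2, fit, Cpr67Fb, CG11854, lncRNA:CR32553, CG9676, CG15263 and Cyp4ac2, so that these rises are descriptions. PPO1, the prophenoloxidase 1 gene of crystal cells, had 8.01, 9.00 and 10.34 (lowest, median, highest) in +D arrays, while control arrays had 4.72, 4.95 and 4.83. Every +D array was at least 3.06 above every control. The rise was 4.35 ± 0.34 (SE; adjusted p = 3.3e-08), and it was 4.28, 5.02, 4.12 and 3.96 in lines 5, 7, 12 and 15. PPO2, the second prophenoloxidase of crystal cells, had 8.46, 9.41 and 10.28 in +D arrays and 6.54, 6.74 and 6.65 in control arrays, a rise of 2.78 ± 0.30 (adjusted p = 1.3e-06). Both had their highest values in line 7. Other blood cell genes moved in both directions. Hml and NimC1, markers of plasmatocytes, had changes of -0.19 (adjusted p = 0.28) and -0.25 (adjusted p = 0.30), and NimC4, a receptor by which phagocytes take up dying cells, fell by 2.38 ± 0.44 (adjusted p = 3.0e-04). The genes Col4a1 and vkg of collagen IV, which hemocytes and fat body secrete, fell by 1.34 ± 0.16 and 1.42 ± 0.17. Tep4, a thioester protein gene, NimB2, a secreted Nimrod protein gene, and Sr-CI, a scavenger receptor of phagocytes, rose by 1.17 ± 0.13, 0.78 ± 0.13 and 0.61 ± 0.18. Of the 22 members tested in the hemocyte list 7 rose (31.8%) and 4 fell (18.2%), with a median of 0.05, where 25.9% of all probe sets rose and 13.2% fell. Of the 7 rises 3 passed the filter through inbred arrays alone. PPO1 and PPO2 were also high in −D sublines, with 4.13 and 2.74 over the same controls, and the differences between +D and −D sublines were 0.22 ± 0.22 and 0.04 ± 0.19.

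Immune peptides were higher in part. Of 15 tested 6 rose (40%, against 25.9% of all probe sets) and 0 fell, with a median of 0.46. Drsl5, a peptide gene of the drosomycin family, had 8.88, 9.88 and 10.88 (lowest, median, highest) in +D arrays and 8.52, 7.57 and 7.58 in control arrays, with a rise of 2.01 ± 0.26 (SE; adjusted p = 7.1e-06). BomBc3 and BomS5, which make bomanins, peptides of the Toll response, rose by 1.81 ± 0.27 and 1.28 ± 0.30. The peptides with the widest spread were not called. Mtk (metchnikowin) had 1.01 ± 0.74 (SE; adjusted p = 0.29) and Drs (drosomycin) -0.17 ± 0.46 (adjusted p = 0.79). In the list of recognition and signalling 9 of 25 rose (36.0%, against 25.9% of all probe sets) and 3 fell. Of the 9 rises 1 passed the filter through inbred arrays alone. Without replicate 2 of the control 4 rose, and without replicate 1 or 3 of the control 1 fell. SPE, the protease that cuts the Toll ligand, and GNBP3, which binds fungal glucans, rose by 0.62 and 0.54. The strongest fall was in pirk, a brake of the Imd pathway, which had 6.82, 8.24 and 8.85 in +D arrays and 9.33, 9.23 and 9.43 in control arrays. It fell by 1.32 ± 0.34 (SE; adjusted p = 0.0044), and it was 1.10 ± 0.22 higher in +D than in −D sublines (adjusted p = 0.0013).

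The gene fit had the second largest rise, while the lists of the fat body and of fasting were close to the other probe sets. The gene fit, a satiety signal of the fat body known for its female-biased expression, had 5.74, 8.58 and 9.82 (lowest, median, highest) in +D arrays and 3.78, 3.78 and 4.01 in control arrays. The rise was 4.32 ± 0.61 (SE; adjusted p = 1.9e-05), and 4.34 without the 3 eggshell arrays. The array with the lowest value was line 7 replicate 1, still 1.73 above the highest control. The 3 arrays with eggshell transcripts had 7.83, 7.89 and 8.73 and were within the range of the others. The gene tobi, an α-glucosidase controlled by insulin and glucagon-like signals, had 11.10, 12.01 and 12.72 in +D arrays and 9.67, 9.93 and 9.44 in control arrays, with a rise of 2.31 ± 0.24 (adjusted p = 8.5e-07). Of the list of lipid and fasting metabolism 8 of 34 rose (23.5%, against 25.9% of all probe sets) and 5 fell, and 3 and 2 fell without replicate 1 or 3 of the control. Of the 8 rises 3 passed the filter through inbred arrays alone. Of 11 larval serum and fat body genes 4 rose (36.4%, against 25.9% of all probe sets) and 0 fell, with a median of -0.01. Of the 4 rises 1 passed the filter through inbred arrays alone. Mtp, which loads lipid onto lipoproteins, rose by 0.53 ± 0.12 but was 0.41 ± 0.08 lower in +D than in −D sublines.

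Several genes outside the lists were also among the 10 largest rises. CG11854 had 5.71, 7.64 and 9.10 (lowest, median, highest) in +D arrays and 3.96, 3.99 and 4.11 in control arrays, with a rise of 3.56 ± 0.46 (SE), and its excess over −D sublines was 1.26 ± 0.29 (adjusted p = 0.0044). CG34040 rose by 2.49 ± 0.39, CG8329 and CG9676, both annotated as serine proteases, by 2.46 ± 0.38 and 2.41 ± 0.37, and the long non-coding RNA lncRNA:CR32553 by 2.38 ± 0.36. In these 5 all +D arrays were above the controls. CG15263 rose by 2.35 ± 0.50, but in line 15 its change was 1.08 (adjusted p = 0.20), and line 7 replicate 3 with 5.82 overlapped the controls, which had 5.86, 5.03 and 5.48.

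Detoxification genes were called higher somewhat more often than all probe sets. Of 83 tested 32 rose (38.6%, against 25.9%) and 7 fell (8.43%, against 13.2%), with a median of 0.29, and these counts were 33 and 5 without the 3 eggshell arrays. The falls were 4 without replicate 1 or without replicate 3 of the control. Of the 32 rises 8 passed the filter through inbred arrays alone. Cyp4ac2, a cytochrome P450 gene, had 6.96, 7.39 and 8.51 (lowest, median, highest) in +D arrays and 5.30, 4.83 and 5.75 in control arrays, a rise of 2.17 ± 0.25 (SE; adjusted p = 1.9e-06). Cyp6w1 rose by 1.495 ± 0.287 and Cyp4e3 fell by 2.48 ± 0.50. Of 29 odorant-binding protein genes 15 rose (51.7%, against 25.9% of all probe sets) and 2 fell, with a median of 0.58. Obp56d had 12.39, 12.60 and 13.10 in +D arrays and 11.11, 10.32 and 10.81 in control arrays. Its rise of 1.88 ± 0.20 (SE; adjusted p = 1.1e-06) had an SD between line means of 0.09. Obp99b, which is also made in the fat body, rose by 2.27 ± 0.38, and Obp83g fell by 1.99 ± 0.49.

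**Figure D4:**
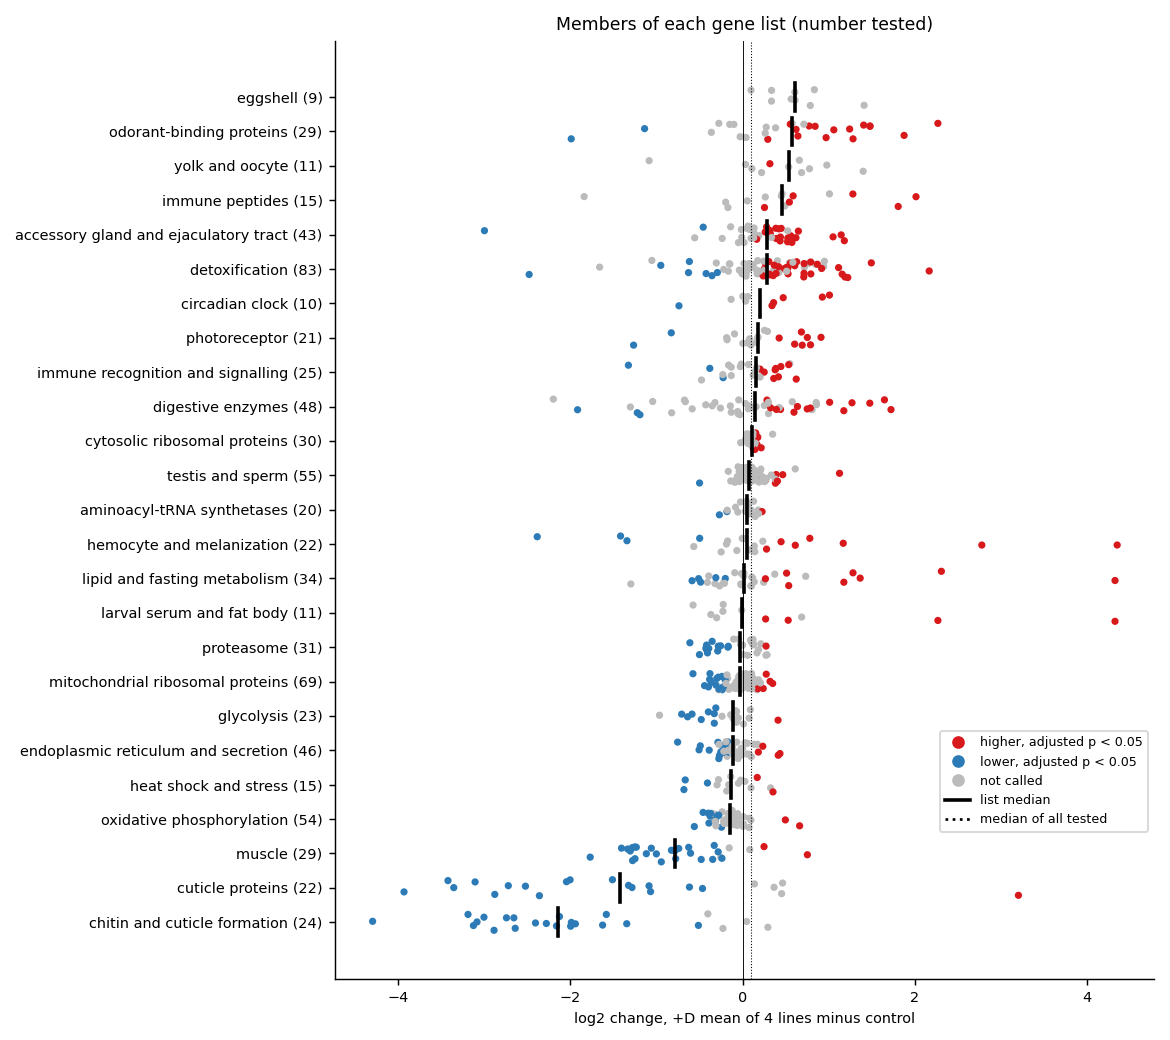
Log2 change of +D sublines against control (horizontal axis) for the tested members of each gene list (vertical axis, number tested in brackets); red and blue points are members called higher and lower, black bars list medians, and the dotted line the median of all probe sets. The muscle list and both cuticle lists lie to the left with medians of -0.79, -1.42 and -2.14, and most other list medians lie close to 0.

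Seminal genes of the accessory gland and ejaculatory tract were moderately higher. Of 43 tested 23 rose (53.5%, against 25.9% of all probe sets) and 2 fell, with a median of 0.29. All +D arrays were above the controls in 9, where this held for 12.0% of all probe sets. Without replicate 1 of the control 12 rose. Acp26Ab, a seminal peptide gene, had 10.33, 10.88 and 11.35 (lowest, median, highest) in +D arrays and 9.35, 10.14 and 9.64 in control arrays. It rose by 1.15 ± 0.16 (SE; adjusted p = 1.7e-05) with an SD between line means of only 0.06. The gene intr, which acts in the storage of sex peptide on sperm, rose by 1.18 ± 0.18, and SP, sex peptide itself, by 0.56 ± 0.08. The highest control value of intr was 7.20, so it passed the filter through inbred arrays alone and its rise is a description. Among the 23 rises 1 was of this kind. The larger of the 2 falls, Acp65Aa with -2.995 ± 1.034 (SE), is an adult cuticle protein gene that entered the list by its symbol. Its arrays followed the second cuticle pattern, with 12.29 in line 15 replicate 1 and 5.95 in replicate 3. Set against the −D sublines 27 of the 43 were lower in +D sublines and 0 higher, where 9.14% of all probe sets were lower. Against the control the list median was 0.29 in +D sublines and 0.55 in −D sublines. Testis and sperm genes moved little, with 7 rises (12.7%, against 25.9% of all probe sets) and 1 fall of 55. The rises were 1 and 4 without replicate 1 or 3 of the control. The sperm gene dj (don juan) rose by 1.13 ± 0.38 (SE; adjusted p = 0.024), with 2.13 in line 5 and 0.48 in line 7. It was not called without the 3 eggshell arrays (1.08, adjusted p = 0.052). Taf12L, a testis form of a transcription factor subunit, rose by 0.47 ± 0.13. Its highest control value was 6.87, so it passed the filter through inbred arrays alone and this rise is a description.

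Among digestive enzymes 14 of 48 rose (29.2%, against 25.9% of all probe sets) and 3 fell. The falls were 5 without line 5 replicate 1, line 7 replicate 3 or line 15 replicate 1. The maltase genes Mal-A7 and Mal-B2 rose by 1.72 ± 0.26 and 1.65 ± 0.18 (SE), while the protease gene Jon44E had 6.66, 8.35 and 9.60 (lowest, median, highest) in +D arrays and 9.92, 10.65 and 10.10 in control arrays, with a fall of 1.92 ± 0.39 (adjusted p = 7.1e-04). Jon44E was also 0.95 ± 0.25 lower in +D than in −D sublines. The same held for 23 of the 48, while 2 were higher. Over all probe sets 9.14% were lower and 6.48% higher. The list medians against the control were 0.15 in +D sublines and 0.56 in −D sublines.

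Proteasome genes were lower in part. Of 31 tested members 13 fell (41.9%, against 13.2% of all probe sets) and 1 rose. In 12 all +D arrays were below the controls, where this held for 6.83% of all probe sets. When split after the values were seen, the falls were 13 of 14 genes of the regulatory particle, which unfolds the substrates, and 0 of 12 genes of the core particle, which cuts them, and the difference between these parts was not tested. The changes were -0.61 to -0.10 in the regulatory and -0.05 to 0.19 in the core particle. Rpn1, a scaffold of the regulatory particle, had 9.44, 9.77 and 9.98 (lowest, median, highest) in +D arrays and 10.55, 10.24 and 10.32 in control arrays, and fell by 0.61 ± 0.08 (SE; adjusted p = 1.6e-05). Rpn2 and the ATPase gene Rpt2 fell by 0.50 ± 0.09 and 0.42 ± 0.08. The remaining 5 members are copies named for testis expression or related to it, with changes of 0.11 to 0.28 and 1 call. The −D sublines had 12 lower of the 31 (against 15.1% of all probe sets). No member was called between +D and −D sublines, where 6.48% of all probe sets were higher and 9.14% lower in +D sublines. After median centring 13 of the 31 fell, and without replicate 1 of the control 8 did.

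Genes of the endoplasmic reticulum and secretion had 16 falls (34.8%, against 13.2% of all probe sets) and 4 rises among 46. The falls were 6 without replicate 3 of the control, 13 without the 3 eggshell arrays, 6 without these and 3 further arrays with yolk transcripts, and 8 with line as a random block. The rises were 1 without replicate 1 of the control. Gp93, a chaperone of the HSP90 family, had 10.07, 10.22 and 10.72 (lowest, median, highest) in +D arrays and 11.02, 11.03 and 11.12 in control arrays, and fell by 0.75 ± 0.12 (SE; adjusted p = 8.9e-05). TRAM, a protein of the translocation channel, fell by 0.50 ± 0.09, Sec24CD, of the vesicle coat, by 0.49 ± 0.11, and the BiP gene Hsc70-3 by 0.41 ± 0.10. Of the lists this one had the highest share called between the 2 inbred levels. In the direct test 37 of the 46 were lower in +D than in −D sublines and 0 higher, where 9.14% of all probe sets were lower. The difference was -0.64 ± 0.06 for TRAM (adjusted p = 8.6e-07). Against the control 21 of the 46 rose in −D sublines, where 30.8% of all probe sets rose. Of 20 aminoacyl-tRNA synthetases 14 were lower in +D than in −D sublines (against 9.14% of all probe sets). Against the control 1 of the 20 rose in +D sublines (5%, against 25.9% of all probe sets) and 2 fell (10%, against 13.2%). In −D sublines 13 of the 20 rose against the control, where 30.8% of all probe sets rose. Under the alternatives the rises in +D sublines numbered 0 to 4 and the falls 0 to 3. The heat shock list of 15 had 2 rises (13.3%, against 25.9% of all probe sets) and 3 falls (20%, against 13.2%). The change was -0.66 ± 0.21 for Hsp68 and -0.68 ± 0.14 for stv, a co-chaperone. Cytosolic ribosomal protein genes had 9 rises of 30 (30%, against 25.9% of all probe sets) and 0 falls, and the largest of these rises was 0.22 in RpS18. The number of rises was 3 after median centring, 22 without line 15 replicate 1, and 3, 4 and 5 without replicate 1, 2 or 3 of the control.

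Clock and eye genes moved in both directions. Of 10 clock genes tested 5 rose (50%, against 25.9% of all probe sets) and 1 fell, all in flies kept in continuous light. The rises were 3 and 2 without replicate 1 or 2 of the control. Of the 5 rises 1 passed the filter through inbred arrays alone. The gene cry, for the blue light receptor, had 8.62, 9.33 and 9.66 (lowest, median, highest) in +D arrays and 8.26, 8.11 and 8.47 in control arrays, a rise of 1.01 ± 0.11 (SE; adjusted p = 1.2e-06). The transcription factor gene vri rose by 0.93 ± 0.14, and timeless (tim) fell by 0.74 ± 0.12. Of 21 photoreceptor genes 7 rose (33.3%, against 25.9% of all probe sets) and 2 fell, and 4 rose without replicate 2 of the control. Arr2, an arrestin of the eye, rose by 0.91 ± 0.12, while Calx, a sodium and calcium exchanger, fell by 0.83 ± 0.14, and ninaD, a scavenger receptor for carotenoids, by 1.26 ± 0.29.

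The change against the control differed between lines in a small set. An F test between the 4 +D groups called 242 probe sets (2.69%), of which 103 were also called as a mean change and 139 were not. With only the 15 arrays in the fit it called 34, of which 33 were among the 242. Without the 3 eggshell arrays it called 169, of which 105 were among the 242. CG14957 had the widest range. It had 6.85, 8.68 and 8.58 in line 12 and 3.29 to 4.80 in the other lines, while the controls had 6.98, 7.05 and 7.25, so that lines 5, 7 and 15 were below all controls and line 12 lay on both sides of them (adjusted p between lines = 4.1e-04). The −D sublines of line 12 were high as well, with 7.72, 6.54 and 8.02. Prx6c, a peroxiredoxin gene with close relatives that its probes may also read, had 10.37, 10.18 and 10.30 in line 12 and 7.15 to 7.96 in the others, and the controls had 8.57, 9.69 and 9.28. For this gene the controls lay between the lines, and the −D sublines of line 12 had 11.03, 6.70 and 10.62. CG10725 was lowest in line 7, with 3.92, 6.54 and 5.49, while the other lines had 6.70 to 8.58 and the controls 7.84, 7.94 and 8.15. The −D sublines of line 7 had 4.90, 4.69 and 4.87. Sequence differences between lines under the probes can also alter such values and were not tested.

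**Figure D5:**
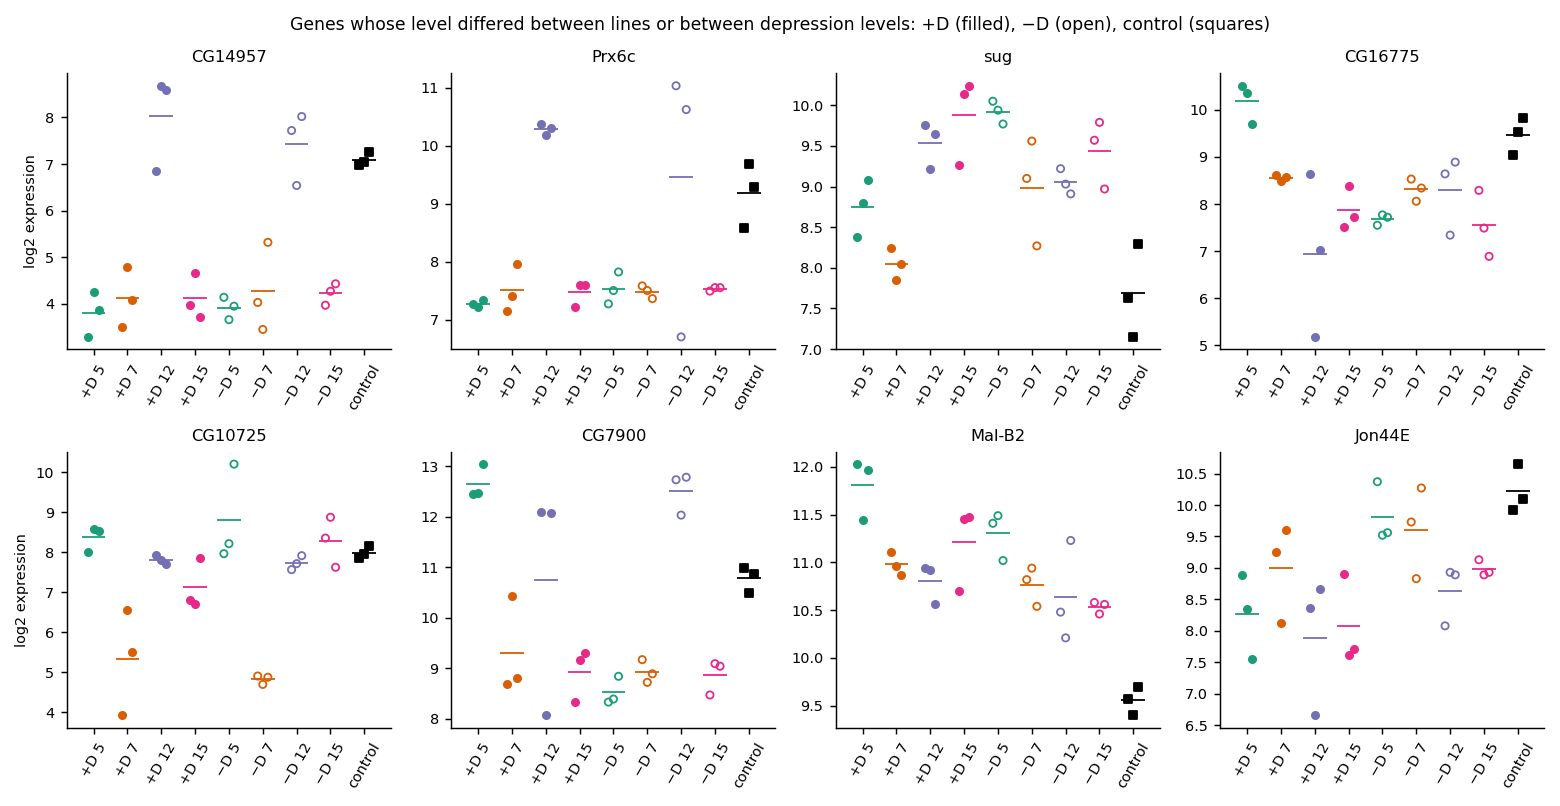
Log2 expression of 8 genes (vertical axis) in +D sublines (filled), −D sublines (open) and outbred controls (squares), by line (horizontal axis); bars are means of 3 arrays. CG14957 and Prx6c are high in line 12 of the +D sublines, CG10725 is low in line 7, as they are in most −D sublines of the same lines, and Jon44E is lowest in +D sublines.

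The transcription factor gene sug (sugarbabe), which responds to sugar, rose in lines 5, 12 and 15 and was not called in line 7. It had 8.38, 8.80 and 9.08 in line 5, 8.25, 7.85 and 8.05 in line 7, 9.76, 9.21 and 9.65 in line 12 and 9.27, 10.14 and 10.24 in line 15, and the controls had 7.63, 7.15 and 8.29. Line 7 overlapped the controls, with a change of 0.36 (adjusted p = 0.44), and the lines differed (adjusted p between lines = 0.0098), although not without the 3 eggshell arrays (adjusted p = 0.056) or with weights by depression level (adjusted p = 0.072). CG7900 had 12.45, 12.46 and 13.04 in line 5, all above the controls with 10.98, 10.49 and 10.86. It had 8.34, 9.16 and 9.30 in line 15, all below them. The mean change of -0.37 ± 0.53 (SE; adjusted p = 0.61) hid these opposite directions. CG16775 had 10.51, 10.35 and 9.69 in line 5 and 8.64, 5.18 and 7.02 in line 12, with 9.05, 9.52 and 9.83 in the controls.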

How the data were processed

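The authors extracted total RNA from pooled whole males, hybridized it to Affymetrix Drosophila Genome 2.0 arrays, and normalized and summarized the probe sets with RMA, with Partek 7.3.3 and affy among the tools named, so that the deposited values are log2 expression. The table of all 27 arrays was used here; a second table without the controls was not used. The 183 control probe sets of the manufacturer were left out, which leaves 18769. Of these 13647 match 1 gene by the platform annotation, 402 several and 4720 none, and 13544 were updated by gene identifier to the reference annotation (Release 6). Tests covered the 9000 probe sets that reached the highest values in any array. Of 1224 list symbols 1206 matched a gene, and each gene was taken by its probe set of highest mean. Quantile steps of RMA set arrays to one distribution, so a change shared by most genes would be reduced.

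Differences were tested with limma 3.58.1 in R 4.3.3 (lmFit, and eBayes with trend) on 27 arrays in 9 groups that share 1 spread per probe set, with equal weight per line and Benjamini-Hochberg adjustment over the 9000 (adjusted p under 0.05, two-sided). Separation of arrays and SDs are descriptions. The labels call the samples biological replicates, each subline being a sample of its line. Arrays have no read depth, and 3 arrays per group limit the precision. The +D sublines varied more than the controls (relative array weights 0.74 and 1.48), so the SEs of +D means come from a spread averaged over groups. On simulated data 69% of changes of 0.5 and 92% of changes of 1 log2 unit were recovered. There 6 of 8700 unchanged probe sets were called, and a change of 1 in 1 line was recovered in 88%. Whether these rates hold for the real arrays, where +D sublines varied more than the controls, was not tested. The share of false calls among the real calls is therefore not given by them.

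Named genes are the 10 largest rises and falls with the same sign in 4 lines, the 5 rises and 5 falls with the widest gap between arrays, the 5 widest ranges between lines, and the 3 largest called members of each list. Other names were chosen after their values were seen. The members and lists were chosen with earlier results of these data known. Alternatives covered filters, normalization, variance prior, arrays in the fit, weights, line as the unit, the replicate number as a block, and leaving out arrays or lines; leaving out 6 arrays with eggshell or yolk transcripts and 1 list were added after seeing the data.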

Additional observations from a re-analysis of the deposited data

Results flagged for a closer look

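For 8 of the named genes the change against the control differed between the 4 lines, with adjusted p of 4.1e-04 for CG14957, 0.0098 for sug, 0.011 for CG10725, 0.012 for CG7900, 0.013 for CG16775, 0.023 for Prx6c, 0.047 for Mal-B2 and 0.050 for Taf12L. The first 6 were also past the threshold with the replicate number as a block, but with 15 arrays in the fit only CG14957, Prx6c, sug and CG10725 were (adjusted p = 0.0054, 2.6e-04, 0.049 and 0.049). Without the 3 eggshell arrays CG14957, CG10725, CG16775 and CG7900 were past it, and sug and Prx6c were not (adjusted p = 0.056 and 0.060). With weights by depression level only CG14957 and CG7900 were (adjusted p = 0.0033 and 0.043), with 0.072 for sug and 0.15 for Prx6c. Mal-B2 rose in every line, by 2.26 in line 5 and by 1.26 to 1.65 in the others, and Taf12L rose in lines 5, 12 and 15 while its change in line 7 was 0.01. CG14957, Prx6c, CG10725, CG7900 and CG16775 were named because of their range between lines, so for these the p is a description.

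For 18 named genes the change against the control differed between the 2 inbred levels. The +D sublines were higher than the −D sublines by 1.33 for Cpr67Fb, 1.26 for CG11854, 1.10 for pirk, 0.97 for CG34040, 0.96 for CG15263, 0.70 for CG9676, 0.68 for Cht5, 0.39 for Mal-B2, 0.30 for vri, 0.21 for Nin and 0.20 for GNBP3. They differed from them by -0.95 for Jon44E, -0.64 for TRAM, -0.45 for Gp93, -0.41 for Mtp, -0.36 for Hsc70-3, -0.27 for GlyRS and -0.22 for GluProRS, all in log2. No group had 4 to 10 arrays, so single arrays were not tested as outliers.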

How the results depend on the processing

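The direction of the list results for muscle and cuticle held under all alternatives run. Of 2737 values of named genes under other settings 2662 kept direction and side of the threshold, 64 in 14 genes lost significance and 10 gained it. CG7900, not called, changed sign to 0.12 without line 15. With the 4500 highest maxima, where fewer probe sets are tested, 1096 were higher and 697 lower, and the numbers called were 1722, 1177, 1196 and 1441 in lines 5, 7, 12 and 15, 119 between lines, 929 between levels, and 560 and 384 separated higher and lower. With no filter 2658 were higher and 1823 lower, so that 59.3% of calls were rises, and the median change was 0.02. The fit on 15 arrays called 1384 in line 7 and 34 between lines, and weights by depression level 27 between lines. Without the 6 eggshell and yolk arrays, chosen after seeing the data, the numbers were 1781, 1321 and 1416 in lines 5, 12 and 15, 104 between lines, 814 between levels, and 1655 and 932 separated; fewer arrays separate more easily.

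Leaving out 1 array gave 1548 (without control replicate 1) to 2633 higher and 789 (the same) to 1282 lower, 2450 to 3688 in line 5, 1180 to 2299 in line 7 (lowest without its replicate 1, and 1298 without control replicate 1), 1368 to 2404 in line 12 (lowest without control replicate 1), 1500 to 3395 in line 15 (lowest without its replicate 3, 1741 without replicate 2, highest without replicate 1), 144 (without line 7 replicate 3) to 323 between lines, 1244 to 1494 between levels, 1091 to 1355 separated higher and 621 to 805 separated lower. Line as a random block left 2458 calls. The causes of these moves were not tested.

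Replicate numbers did not pair the samples: correlations of deviations were -0.55 to 0.30 over 30 pairs with the same number and -0.50 to 0.48 over 60 other pairs. With the replicate block 3324 were called, 3313 of them shared with the 3515, and 160 between lines.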
